A study of Mus musculus with 6 samples.

Results

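The Notch signalling genes examined in these kidneys were 10 members chosen by name: the receptors Notch1 and Notch2, the ligands Jag1 and Dll1, the receptor-modifying enzyme Lfng, and the targets Hes1, Hes5, Hey1, Heyl and Nrarp. All 10 were in the table of 11578 genes. In a test across all genes 0 of the 10 passed for a difference between genotypes, as did 0.285% of all genes. Jag1 was the member whose mutant and wild type values did not overlap, as in 19.5% of all genes, with a mean signal of 90079 ± 6840 (SD, n = 3) in the mutants and 111504 ± 3082 (SD, n = 3) in the wild types. Polyadenylated RNA had been sequenced from 3 kidneys labelled SRM deletion mutant and 3 labelled Sall1 wild type, all labelled as embryonic day 17, or E17.5 in the RNA protocol. The SRM is a short motif near the start of the zinc finger protein Sall1 through which it binds the NuRD chromatin remodelling complex, and the comparison asks which transcripts depend on that interaction. The labels do not give the strain or the number of mutated alleles in the mutants, and they do not say whether the kidneys came from separate embryos, so a p-value here speaks of the spread among these 6 samples.

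In Notch signalling a ligand on one cell binds a receptor on its neighbour, and the receptor is then cut so that its intracellular part moves to the nucleus. There it joins the DNA-binding protein Rbpj and switches on targets, many of which encode transcriptional repressors of the hairy and enhancer of split family. In the developing mouse kidney Notch2 is the receptor chiefly required for the proximal part of the nephron, Jag1, Dll1 and Lfng mark the young nephron, and Notch signalling also acts in blood vessels and the cells that coat them.

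Differences between the libraries that the labels do not give are described first. The authors had scaled the signal, so that totals lay between 555147910 and 559251769 in the 6 libraries, and depth could not be read from them. The values of mutant 336 and wild types 331 and 337 had a strong periodicity, between 0.5613 and 0.8659 on a scale from 0 to 1. Mutants 328 and 342 and wild type 330 had a periodicity between 0.1004 and 0.1391. Scaling can leave a coarser grid in a shallower library, so the first 3 are called coarse spacing libraries and the others fine spacing libraries. These are names for strong and weak periodicity. The step between values was not recorded, and whether the classes differ in depth was not tested. The first principal component, with 60.0% of the variance, separated wild types 331 and 337 from the rest. Kidney markers were present, with all 8 proximal tubule, 8 podocyte and 8 nephron progenitor genes listed in the table, while 1 of 8 muscle and 0 of 6 adrenal genes were. Sall1 had values of 130258 to 161553 in the mutants and 152644 to 176175 in the wild types. One value for the whole gene says nothing of whether the motif is deleted.

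The upstream sequences of 4 members are shown. In Hes5, Lfng and Dll1 the spacing classes did not overlap, as in 30.0% of all genes. In Jag1 the genotypes did not overlap, as in 19.5% of all genes. RefSeq gave a window of 250 bases before the start on GRCm38.p6 for 7 of the 10 members. Each is printed 5′ to 3′ on the strand of the gene, leaving out bases that GENCODE places inside the gene. Capitals mark TGGGAA on either strand, the core of the Rbpj recognition sequence.

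Hes5, chr4:154960673-154960922, plus strand: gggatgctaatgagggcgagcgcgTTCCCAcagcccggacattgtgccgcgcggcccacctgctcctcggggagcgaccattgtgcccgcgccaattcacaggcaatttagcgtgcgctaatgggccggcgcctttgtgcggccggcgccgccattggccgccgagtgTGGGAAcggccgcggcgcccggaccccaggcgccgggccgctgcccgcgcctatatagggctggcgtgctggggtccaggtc
Lfng, chr5:140607091-140607319, plus strand: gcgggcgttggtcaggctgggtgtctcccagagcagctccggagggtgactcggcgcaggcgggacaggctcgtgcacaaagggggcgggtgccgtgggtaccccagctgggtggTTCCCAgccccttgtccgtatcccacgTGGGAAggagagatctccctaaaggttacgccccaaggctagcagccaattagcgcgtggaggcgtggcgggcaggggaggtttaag
Dll1, chr17:15376933-15377182, minus strand: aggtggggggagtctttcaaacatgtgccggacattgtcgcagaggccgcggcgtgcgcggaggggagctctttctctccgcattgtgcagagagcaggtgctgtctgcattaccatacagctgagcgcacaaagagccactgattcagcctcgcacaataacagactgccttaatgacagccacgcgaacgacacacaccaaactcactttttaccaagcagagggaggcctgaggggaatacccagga
Jag1, chr2:137116645-137116770, minus strand: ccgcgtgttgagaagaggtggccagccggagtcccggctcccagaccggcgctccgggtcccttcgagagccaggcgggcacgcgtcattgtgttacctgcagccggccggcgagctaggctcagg

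The Hes5 window held TGGGAA 226 bases before the start on the opposite strand and 82 bases before it on the gene's strand. Both matches were part of the longer GTGGGAA, which contains the shorter motif. In the Lfng window TGGGAA began 135 bases before the start on the opposite strand and 108 bases before it on the gene's strand, and the second was part of GTGGGAA. The letters TGGGAA were found in 2 of the 7 members with a window, read on both strands over all 250 bases, and in 21.6% of 32851 windows of that length, while GTGGGAA was found in 5.4% of them. The Notch1 window and a further Dll1 window lay wholly inside the GENCODE gene, and Hes1, Hey1 and Heyl had no window. A match describes the letters and is not a measured binding site.

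Set per kilobase of the longest transcript, Hes1 had the highest level of the members and Hes5 the lowest. Hes1, a repressor that Notch induces in many tissues, averaged 25358 signal units per kilobase over the 6 libraries, between 22704 and 28198. It stood above the next member, Jag1, in all 6 libraries, and their ranges did not overlap. Jag1 averaged 17960 per kilobase, Heyl 16814, Lfng 16253, Nrarp 13840, Notch1 13227, Hey1 11543 and Notch2 10733, and each of these neighbours overlapped the next in range. Dll1 averaged 7530 and Hes5 3446 per kilobase, and in all 6 libraries Notch2 was above Dll1 and Dll1 above Hes5. On the signal scale without division by length, Notch1 was above 93.6%, Hes1 above 62.6% and Hes5 above 0.8% of genes in the table. The first place of Hes1 thus rests on the division by length.

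The receptors had higher mean signal in the mutants, but the groups overlapped. Notch1 (chromosome 2, 26457903 to 26516663, minus strand) had signals of 160321, 139587 and 116072 in the mutants 328, 336 and 342, and of 136220, 107243 and 93525 in the wild types 330, 331 and 337. The highest value was in a mutant and the lowest in wild type 337, yet wild type 330 lay above mutant 342. The log2 difference was 0.31 (SE 0.19, 95% interval -0.11 to 0.73), with an adjusted p of 0.363 by limma on log2(signal + 1) over all genes. Adjusted values here are Benjamini-Hochberg values, called at 0.05. Notch2 (chromosome 3, 98013527 to 98150361, plus strand) had signals of 135354, 133650 and 89437 in the mutants, and of 121354, 106557 and 89802 in the wild types. Mutant 342 had the lowest value of all 6 libraries, so mutants held both the highest and the lowest. Its log2 difference was 0.16 (SE 0.20, interval -0.28 to 0.60), with a limma adjusted p of 0.652. These differences did not keep their sign once trends on transcript length and GC content had been removed from each library, being -0.0315 for Notch1 and -0.0238 for Notch2. The Notch1 transcript has a GC content of 57.1% and that of Notch2 53.6%, against a median of 50.3% for all genes. Within the libraries of fine spacing the log2 difference was 0.00 for Notch1 and -0.14 for Notch2, and within those of coarse spacing it was 0.48 and 0.45, each with 1 library on one side.

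**Figure D1:**
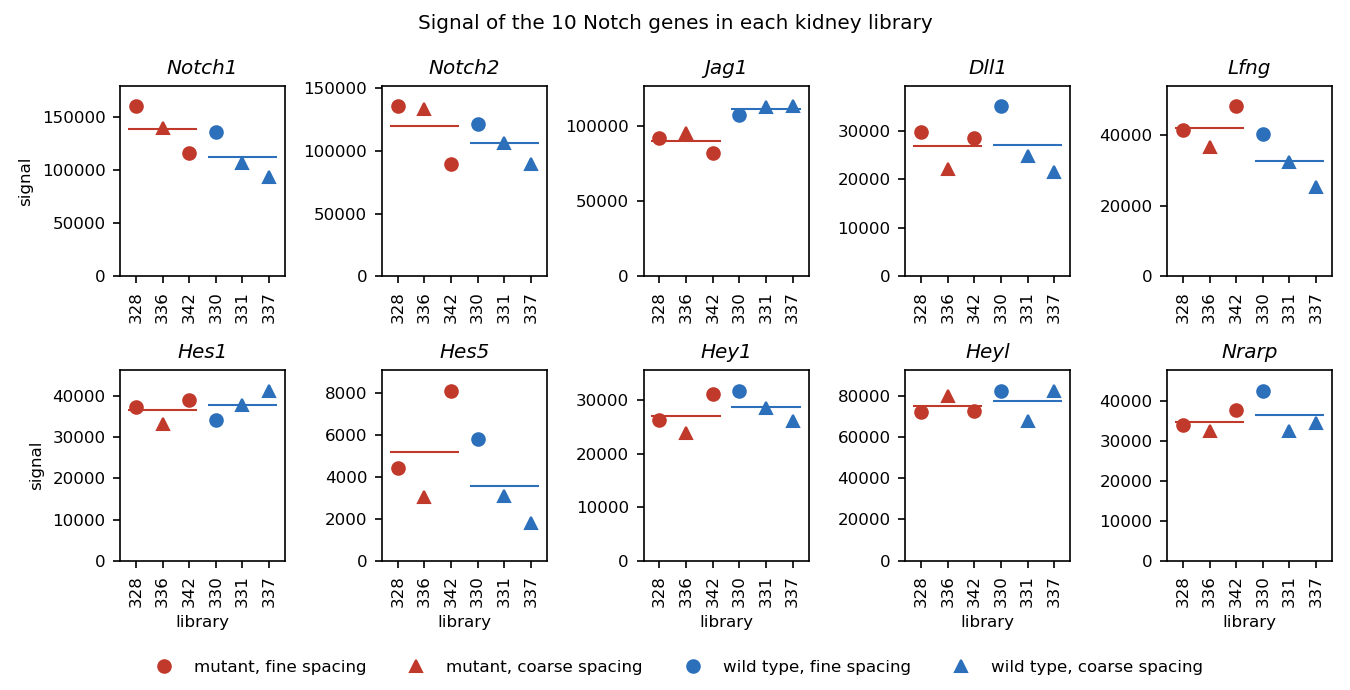
Signal (vertical axes, each from 0) of the 10 Notch genes in each library (horizontal axes), with mutants in red and wild types in blue, fine spacing libraries as circles, coarse spacing libraries as triangles, and horizontal lines for group means. Jag1 is the panel in which all 3 mutants lie below all 3 wild types, and in the panels of Dll1, Lfng and Hes5 all circles lie above all triangles.

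Jag1, the transmembrane ligand Jagged1 (chromosome 2, 137081456 to 137116644, minus strand), was the member that followed genotype most closely. Its signals were 92138, 95654 and 82446 in the mutants 328, 336 and 342, and 107946, 113197 and 113368 in the wild types 330, 331 and 337. All 3 mutants were below all 3 wild types, with wild type 330 nearest to them, and the coefficient of variation was 7.59% in the mutants and 2.76% in the wild types. The log2 difference was -0.31 (SE 0.15, interval -0.65 to 0.03), which is 0.81 times the wild type level and had a limma adjusted p of 0.282. The unadjusted limma p was 0.068, which ranked 2785 among all genes. It was 1 of 10 members with groups that did not overlap, against 19.5% of all genes in either direction and 8.42% with mutants lower. The authors' deposited table gives Jag1 a ratio of 0.8079 and a p of 0.00778, and 8.71% of genes in that table have a p under 0.05. In all 20 alternative settings the Jag1 difference was negative, between -0.36 and -0.24, but groups that do not overlap fix that sign when libraries are left out, weighted or grouped. Settings that could have turned it gave -0.26 with length and GC trends removed, -0.30 with quantile normalization and -0.31 with rescaling to the same median. Of the 20 settings, 0 gave an adjusted p under the threshold.

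The summed signal of the nephron progenitor, macrophage and endothelium markers did not overlap between genotypes, and no background was computed for such sums. The sums of the early nephron, proximal tubule, podocyte, mural (vessel-coating) cell and ureteric bud markers overlapped between genotypes. The values of the muscle gene in the table overlapped too. The summed signal of the 8 nephron progenitor markers was 326272 to 378422 in the mutants and 427176 to 475115 in the wild types, and that of the 6 macrophage markers in the table was 91008 to 92107 and 50216 to 58271. Sall1 was the largest term of the progenitor sum, with means of 146014 in the mutants and 166799 in the wild types. Itga8 had the widest gap between means in that list, at 82907 in the mutants and 123096 in the wild types. Its genotypes overlapped, and its fine spacing libraries were all below the coarse ones. Of the 8 progenitor markers Cited1 passed the adjusted threshold, at -1.70 on the log2 scale (limma adjusted p = 0.024), while Meox1 was higher in all mutants than in all wild types and Six2 had a difference of 0.11. The sum of the 10 endothelium markers was 632110 to 638506 in the mutants and 600116 to 620157 in the wild types, a ratio of 1.04. Its genes went both ways, 6 above 0 and 4 below, from Egfl7 at 0.88 to Emcn at -0.55 on the log2 scale. The sum of the 10 early nephron markers overlapped between groups, at 774914 to 860032 and 721329 to 897845. Of these 10, Pou3f3, Cdh6 and Bmp2 had mutant values below all wild type values and Pax8 had mutant values above them, none past the adjusted threshold. That is 40.0% of the list, against 19.5% of all genes, where 8.42% had mutants lower. The part of these markers in the Jag1 values was not tested. In whole kidneys, fewer cells of a type and less RNA per cell cannot be told apart.

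Dll1, the ligand Delta-like 1 (chromosome 17, 15367354 to 15376872, minus strand), showed nearly the same mean in both genotypes. Its signals were 29848, 22183 and 28461 in the mutants, and 35041, 24814 and 21438 in the wild types. The 3 higher values were those of the fine spacing libraries and the 3 lower ones those of the coarse spacing libraries, across genotypes. The log2 difference was 0.00523 (SE 0.22, interval -0.48 to 0.50), with a limma adjusted p of 0.990, and the mean in the mutants was 99.0% of that in the wild types. Lfng, the Fringe glycosyltransferase that changes how strongly a receptor answers each ligand (chromosome 5, 140607320 to 140615545, plus strand), had signals of 41518, 36645 and 48251 in the mutants and 40328, 32568 and 25465 in the wild types. Mutant 342 was highest and wild type 337 lowest, but wild type 330 lay above mutant 336. Its log2 difference was 0.38 (SE 0.21, interval -0.08 to 0.83), with a limma adjusted p of 0.318, and it was -0.0270 with length and GC trends removed. The Lfng transcript has a GC content of 58.8%.

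Hes5, a repressor of the hairy and enhancer of split family that is closely tied to Notch activity (chromosome 4, 154960923 to 154962371, plus strand), had the widest spread. Its signals were 4418, 3061 and 8121 in the mutants, and 5790, 3109 and 1820 in the wild types. The coefficient of variation was 50.4% in the mutants and 56.7% in the wild types. The log2 difference was 0.58 (SE 0.50, interval -0.51 to 1.68), with a limma adjusted p of 0.499, so the interval runs from 0.70 to 3.20 times the wild type level. As with Dll1 and Lfng, all 3 fine spacing libraries were above all 3 coarse spacing ones, and the ratio of class means was 2.29 for Hes5, 1.37 for Lfng and 1.36 for Dll1. These 3 of 10 members stand beside 30.0% of all genes whose spacing classes do not overlap, 15.0% with the fine class higher, and the share was not tested. The fine class holds 2 mutants and 1 wild type, so spacing class and genotype are partly the same division. With spacing class as a covariate the log2 difference was 0.21 (SE 0.43) for Hes5, 0.25 (SE 0.18) for Lfng and -0.16 (SE 0.18) for Dll1. The Hes5 transcript has a GC content of 62.1%. Its difference was 0.14 (SE 0.42) with length and GC trends removed and 0.16 (SE 0.44) with quantile normalization.

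The other 4 targets had log2 differences between -0.09 and -0.05, none past the threshold, but 3 of them moved further from 0 with length and GC trends removed. Hes1 (chromosome 16, 30064384 to 30067796, plus strand) had signals of 37484, 33329 and 38985 in the mutants, and of 34260, 37898 and 41394 in the wild types. Its range over all 6 libraries was narrow and the groups were interleaved, with the lowest value in mutant 336 and the highest in wild type 337. The log2 difference was -0.0474 (SE 0.17, interval -0.43 to 0.33), with a limma adjusted p of 0.890. Hey1, a related repressor with roles in vessels (chromosome 3, 8663359 to 8667256, minus strand), had signals of 26326, 23863 and 31171 in the mutants and of 31841, 28486 and 26132 in the wild types. The genotypes overlapped, and the difference of -0.09 (SE 0.19, interval -0.50 to 0.32) had a limma adjusted p of 0.792. Heyl, a related repressor known from cells that coat vessels (chromosome 4, 123233556 to 123249875, plus strand), had signals of 72269, 79855 and 72674 in the mutants and of 82672, 67676 and 82556 in the wild types. Wild type 331 had the lowest Heyl value and the other 2 wild types the highest, and the difference was -0.05 (SE 0.16, interval -0.40 to 0.31) with a limma adjusted p of 0.885. Nrarp, a small protein that dampens Notch signalling by binding its nuclear complex (chromosome 2, 25180758 to 25183339, plus strand), had signals of 34010, 32533 and 37947 in the mutants and of 42736, 32668 and 34521 in the wild types. Wild type 330 stood above the other libraries, which lay between 32533 and 37947, and the difference was -0.07 (SE 0.18, interval -0.46 to 0.33) with a limma adjusted p of 0.848. These intervals still allow levels of 0.74 to 1.26 times wild type for Hes1, 0.71 to 1.25 for Hey1, 0.76 to 1.24 for Heyl and 0.73 to 1.26 for Nrarp. With length and GC trends removed, the log2 difference was -0.31 (SE 0.13, limma adjusted p = 0.369) for Heyl and -0.29 (SE 0.12, limma adjusted p = 0.374) for Nrarp, near that of Jag1 in the same setting. It was -0.22 (SE 0.14) for Hey1 and -0.03 (SE 0.13) for Hes1.

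**Figure D2:**
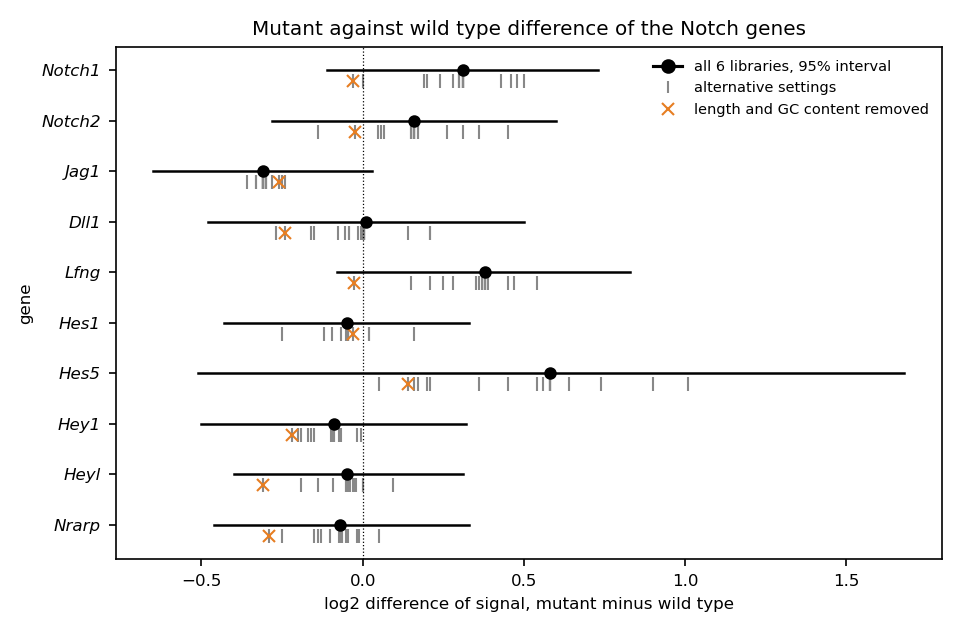
Log2 difference of signal, mutant minus wild type (horizontal axis), of each Notch gene (vertical axis) in the fit of all 6 libraries, with the 95% interval as a line, alternative settings as grey ticks, and the setting with length and GC content removed as an orange cross. Every interval includes 0, that of Jag1 ends at 0.03, and the crosses of Notch1, Notch2 and Lfng lie just below 0.

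Counted together, 0 of the 10 members passed the adjusted threshold in limma, and 0 had an unadjusted limma p under 0.05, against 19.0% of all genes. In other settings 3 had such a p. They were Jag1, Heyl and Nrarp with length and GC trends removed, where 12.7% of all genes did, and Notch1, Jag1 and Lfng both with array weights, where 44.1% did, and without wild type 330, where 41.2% did. The authors' p-values, adjusted in the same way, gave 0 members as well, with Jag1 under 0.05 before adjustment. The median log2 difference of the members was -0.02, and that of all genes 0.02, with 5 members above 0 and 5 below. With length and GC trends removed, 9 of the 10 lay below 0, all but Hes5, where 47.5% of all genes did, and the members' median was -0.13 against 0.02. With array weights Notch1 passed (log2 difference 0.50, SE 0.18, limma adjusted p = 0.0448), a setting in which 30.2% of all genes did. Without wild type 330, 26.7% of all genes passed and 0 members did, the nearest being Lfng with a limma adjusted p of 0.0534.

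Ratios between members of the same role were taken within each library, since they do not depend on the scaling between libraries. The log2 ratio of Jag1 to Dll1 was 1.63, 2.11 and 1.53 in the mutants 328, 336 and 342 and 1.62, 2.19 and 2.40 in the wild types 330, 331 and 337. The balance of the ligands thus overlapped between genotypes and was higher in the coarse spacing libraries. The log2 ratio of Hes1 to Hes5 was 3.08, 3.44 and 2.26 in the mutants and 2.56, 3.61 and 4.51 in the wild types, again overlapping and again higher in the coarse spacing libraries. The log2 ratio of Notch1 to Notch2 was 0.23 ± 0.16 (SD, n = 3) in the mutants and 0.08 ± 0.08 (SD, n = 3) in the wild types, and it was higher in the fine spacing libraries. That of Hey1 to Heyl was -1.47 ± 0.26 (SD, n = 3) and -1.43 ± 0.21 (SD, n = 3), and it overlapped by genotype and by spacing. These ratios are not divided by length and were not tested. The share of all gene ratios that separate by spacing class was not computed, and 30.0% of single genes do so. Dll1 and Hes5 separate by spacing class on their own, so the ratios that hold them are not separate results.

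**Figure D3:**
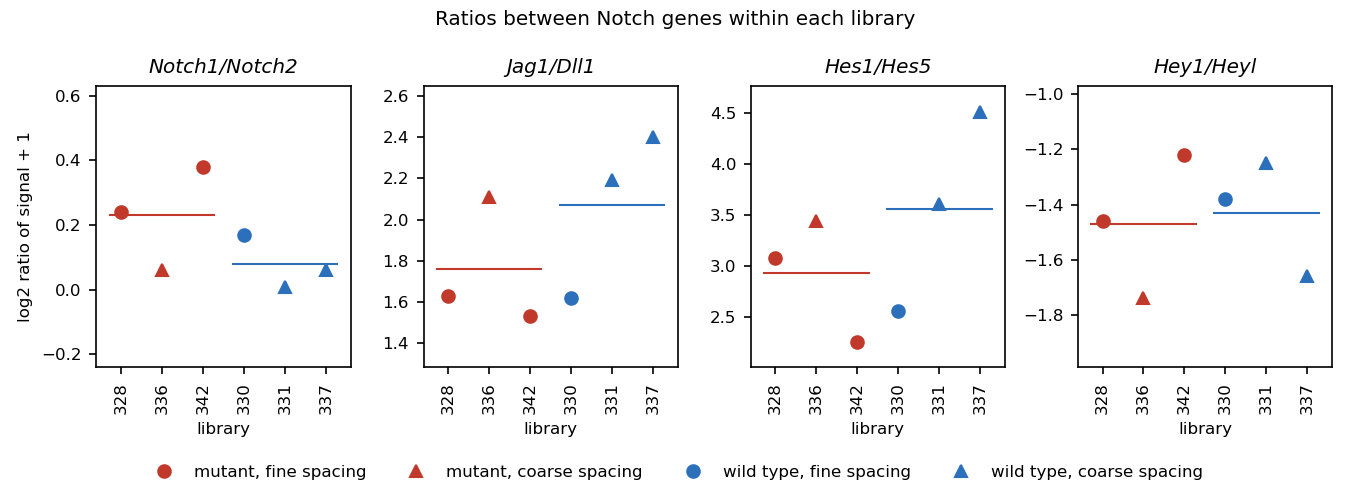
Log2 ratio of signal (vertical axes, which do not start at 0) between pairs of Notch genes within each library (horizontal axes), with mutants in red, wild types in blue, fine spacing libraries as circles, coarse spacing libraries as triangles and lines for group means. Genotypes overlap in all 4 panels, and circles and triangles separate in the first 3, for which no share over other gene ratios was computed.

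Of 57 other genes of the pathway, listed by role, 48 were in the table and 0 passed the adjusted threshold in limma. In these 48 an unadjusted limma p under 0.05 was found for 12, where 19.0% of all genes had one. Of these, 11 were higher in the mutants (22.9%, against 10.5% of all genes) and 1 was lower (2.08%, against 8.51%). The median log2 difference of the 48 was 0.18, against 0.02 for all genes. Genotypes did not overlap in 10 of the 48, or 20.8%, against 19.5% of all genes. The 11 higher genes had a median GC content of 59.9%, and with length and GC trends removed 4 of the 12 kept a p under 0.05, namely Dlk1, Aph1a, Mib2 and Rbpj. In that setting these 4 were the 4 of 48 with such a p, against 12.7% of all genes.

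Rbpj, the DNA-binding protein on which the pathway's transcription depends, was the gene with an unadjusted limma p under 0.05 and lower values in the mutants, among 17 of the 48 with a difference below 0. Its signals were 24100, 30805 and 29676 in the mutants 328, 336 and 342, and 34013, 46093 and 58720 in the wild types 330, 331 and 337. All mutants lay below all wild types, and wild types 331 and 337, which stood apart on the first component, lay far above wild type 330. The log2 difference was -0.69 (SE 0.22), with a limma adjusted p of 0.231. It was -0.35 (SE 0.20) in the fine spacing libraries alone, -0.76 (SE 0.27) in the coarse ones alone and -0.39 (SE 0.16) with length and GC trends removed. GENCODE lists 2 Rbpj pseudogenes, so the value is uncertain where reads were shared. Ctbp1, a corepressor and the most abundant by signal in the list of co-regulators, had a log2 difference of 0.35 (SE 0.18).

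The receptors and ligands outside the 10 members all had differences above 0 in the 5 that the table held of 8 listed. Jag2, the second Jagged ligand, had signals of 14885, 13028 and 10716 in the mutants and 10432, 5252 and 5820 in the wild types. The groups did not overlap, though mutant 342 and wild type 330 were close, and the log2 difference was 0.90 (SE 0.30, limma adjusted p = 0.231), opposite in sign to that of Jag1. It was 0.39 (SE 0.20) with length and GC trends removed and 0.28 (SE 0.25) in the fine spacing libraries alone. Dlk1, an imprinted and atypical ligand-like protein, had signals of 24836, 10513 and 62519 in the mutants and 18943, 5611 and 2734 in the wild types. Mutant 342 was by far the highest, wild type 330 lay above mutant 336, and the fine spacing libraries were all above the coarse ones. The log2 difference of Dlk1 was 1.94 (SE 0.68, limma adjusted p = 0.233). It was 1.29 without mutant 342, 1.30 without wild type 337, 2.57 without mutant 336 and 2.69 without wild type 330. It was 1.24 (SE 0.36) with spacing class as a covariate and 1.06 (SE 0.35) in the fine spacing libraries alone. Notch4, a receptor of endothelium, had 0.49 (SE 0.22, limma adjusted p = 0.257), but 0.00 (SE 0.17) with length and GC trends removed and 0.22 (SE 0.21) in the fine spacing libraries alone. Notch3, a receptor of vessel-coating cells and the most abundant by signal, had 0.28 (SE 0.23), and -0.16 (SE 0.19) with those trends removed.

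Among genes of receptor processing and glycosylation, all 14 listed were in the table and 3 had an unadjusted limma p under 0.05, a share of 21.4% against 19.0% of all genes. The Fringe enzymes Mfng and Rfng, relatives of Lfng, had log2 differences of 0.77 (SE 0.27) and 0.50 (SE 0.20), with mutants above wild types in all libraries, and 0.41 and 0.07 with length and GC trends removed. Aph1a, a subunit of the gamma-secretase that cuts the receptor, had 1.43 (SE 0.51), with signals of 14604, 8613 and 11806 in the mutants and 9799, 4368 and 1779 in the wild types. Wild type 330 lay above mutant 336, and the fine spacing libraries were all above the coarse ones. The Aph1a difference was 0.80 without wild type 337, 2.03 without wild type 330 and 0.42 (SE 0.24) in the fine spacing libraries alone. Adam10, the protease of the preceding cut and the most abundant by signal, had -0.37 (SE 0.22). In the list of endocytosis and turnover, Mib2, a ubiquitin ligase of ligands, had 1.06 (SE 0.33), Numbl, a relative of the Notch inhibitor Numb, 1.11 (SE 0.38), and the Deltex genes Dtx2 and Dtx3 0.92 (SE 0.31) and 0.54 (SE 0.21). These 4 were the genes of 13 in the table with an unadjusted limma p under 0.05, a share of 30.8% against 19.0% of all genes. With length and GC trends removed Mib2 kept such a p, at 0.56 (SE 0.23), while Numbl had 0.56 (SE 0.30), Dtx2 0.48 (SE 0.22) and Dtx3 0.16 (SE 0.16). Mib2 overlapped between genotypes, with wild type 330 at 25178 and mutant 336 at 22958. The fine spacing libraries were all above the coarse ones for Mib2, and its difference was 0.40 in the fine ones alone. Nedd4, the most abundant by signal, had a difference close to 0 (SE 0.16). Of the other hairy and enhancer of split genes and their relatives, 3 of 8 were in the table and 0 had such a p, Bhlhe40, the most abundant by signal, having 0.20 (SE 0.19).

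**Figure D4:**
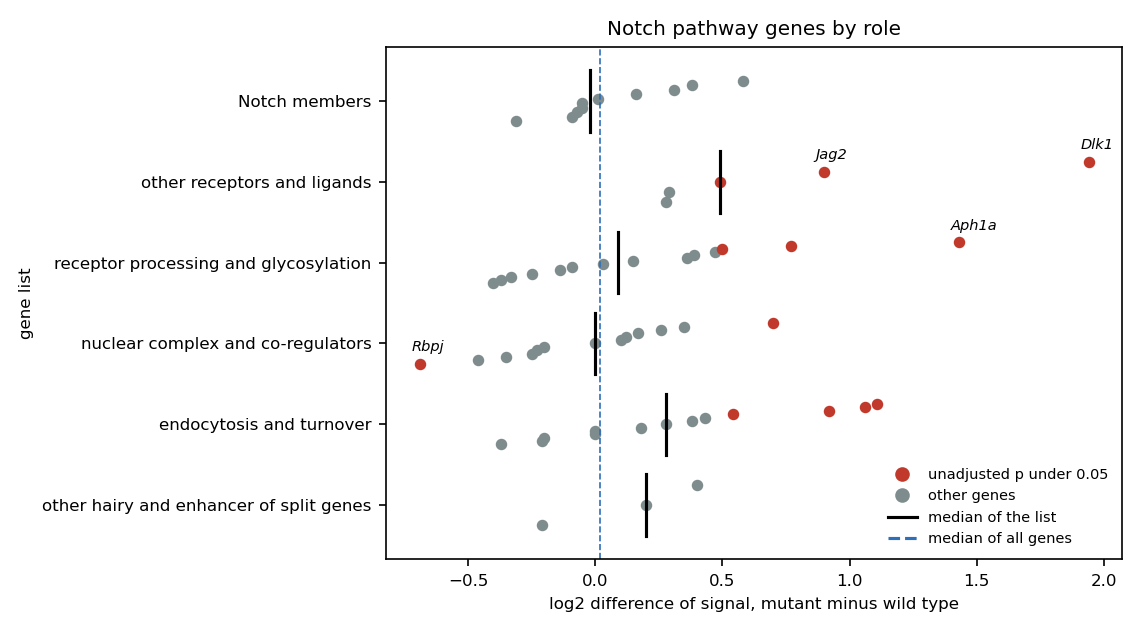
Log2 difference of signal, mutant minus wild type (horizontal axis), of the Notch genes and of the other pathway genes by role (vertical axis), 1 point per gene, with red points for an unadjusted limma p under 0.05, black bars for list medians and a dashed line for the median of all genes. The 10 members centre on -0.02 with no red point, Rbpj is the red point below 0, and the other 11 red points lie above 0.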

How the data were processed

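The deposited signal values, whole numbers per gene and library, were scaled by the authors so that library totals came out almost equal. The build was mm10 and bedtools took part, per the submitters' processing notes. How reads were aligned, assigned to genes, filtered and scaled is not given in the sources used here. As it is not stated whether reads or bases were counted, no counts were recovered and no counting interval is given. The authors also deposited group means, their ratio, log2 values and a p-value per gene.

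The test was limma (version 3.58.1, R 4.3.3) with a variance trend, run on log2(signal + 1) for all 11578 genes. P-values were adjusted by Benjamini-Hochberg and called at 0.05. Requiring a value of 1 or more in 3 libraries or more removed 0 genes. The lowest mean was 3146, so genes of low signal appear to be missing from the table. The planned test for counts was not needed. Groups share no library number, so none were paired. Spacing class was read from the periodicity of values under 60000, split at 0.3. Transcript length, GC content and positions come from GENCODE M21 on GRCm38 (11517 genes matched, 566 by synonym). The fit was run on simulated data with independent errors and with spreads shuffled among genes. Such data lack the differences shared by many genes in these libraries, so the run does not show how the fit behaves here. Members, lists and tests were chosen with earlier results of these data known. Named were all members and, per pathway list, genes with an unadjusted p under 0.05 and the most abundant, with 1 gene of that rule not reported here. Alternatives varied pseudocount, filter, scaling, variance model, covariates, threshold, test and libraries.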

Additional observations from a re-analysis of the deposited data

How the results depend on the processing

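Of 199 values of the members over 20 alternative settings, 178 kept their direction, and of 339 values of the named pathway genes 330 did. These counts include values whose direction was fixed. Changing the threshold, the filter or the variance trend leaves a difference as it was. Where genotypes do not overlap, leaving out, weighting or grouping libraries could not turn the direction either. The fits of either spacing class alone were chosen after the data were seen, and their lone library of one genotype is assumed to vary like the others. The number of genes called, 33, was 2 to 3095 on leaving out 1 library (2 without mutant 328 and 3095 without wild type 330), 3493 with array weights, 704 and 70 in the coarse and fine spacing libraries alone, and 0 by the authors' p-values after adjustment, where 1009 had an unadjusted p under 0.05. Members called numbered 1 with array weights and 0 to 0 on leaving out 1 library. Other pathway genes called numbered 17 with array weights, 2 in the coarse spacing libraries alone and 0 to 15 on leaving out 1 library, the 15 without wild type 330, among them Rbpj and Jag2. Apart from the fewer libraries tested, the cause was not tested.

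Direction turned as follows. With length and GC content removed, log2 differences were -0.0315 for Notch1, -0.0238 for Notch2, -0.24 for Dll1, -0.0270 for Lfng, -0.16 for Notch3 and 0.19 for Nedd4. In fine spacing libraries alone they were -0.14 for Notch2, -0.27 for Dll1, 0.16 for Hes1, -0.0229 for Notch3 and 0.10 for Adam10, and in coarse spacing libraries alone -0.0562 for Dll1, 0.0954 for Heyl and 0.13 for Nedd4. With spacing class as a covariate they were -0.16 for Dll1 and 0.00191 for Nedd4. Dll1 was at -0.00427 with quantile normalization and at -0.0140 by the authors' ratio. Leaving out 1 library, Dll1 ranged from -0.15 without wild type 337 to 0.21 without wild type 330, Hes1 from -0.12 to 0.0193, Heyl from -0.14 to 0.00206, Nrarp from -0.14 to 0.0496 and Nedd4 from -0.0747 to 0.0447. No scaling moved the median of all genes by over 0.1. No paired analysis was possible because the groups share no replicate number. Precision is limited by 3 libraries a group, and depth is unknown.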
